A study of Rattus norvegicus with 10 samples.

Results

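Glutathione transferases were followed in islets of BB-related and F344 rats through 10 genes: the membrane enzymes Mgst1, Mgst2 and Mgst3, the mu-class enzymes Gstm1, Gstm2 and Gstm7, and Gstt1 (theta), Gstk1 (kappa), Gsto1 (omega) and Gstz1 (zeta). They were taken by name, as every probe set of the array annotated to 1 of these symbols alone. Each gene has 1 such probe set, so 10 of the 31042 probe sets tested were members, and no member could be checked against a second probe set. All 10 passed into the test, which used no filter on dim signals.

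Glutathione transferases couple the tripeptide glutathione to electrophiles such as lipid aldehydes and drug metabolites, which makes them soluble and ready for export. Several also reduce lipid hydroperoxides with glutathione, and others serve amino acid breakdown or the recycling of ascorbate. Beta cells are known for a low content of enzymes that remove peroxides, while liver holds far more conjugating capacity.

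RNA came from pancreatic islets of rats 40 days old and was hybridised to Affymetrix arrays, 2 per group. DR+/+ and JB rats are BB (BioBreeding) lines, resistant to spontaneous diabetes but inducible, and carry no mutation at the lyp locus. JBlyp/lyp rats are diabetes prone and homozygous for lyp, the lymphopenia mutation in the GTPase gene Gimap5. F344 rats are healthy controls, and F344lyp rats are healthy controls that carry lyp. Per the labels, DR+/+ and JBlyp/lyp animals came from DRlyp/+ breeders and BB rats are called congenic; the relation of JB to DR is not given, and one protocol names DRlyp/lyp and WF rats but no JB rats. The protocols state a fast of 12 h, the use of males and the exclusion of animals whose blood glucose was high. The labels call the 2 arrays of a group biological replicates and do not say whether animals were pooled, so the p-values here take in only the variation among these arrays. Levels are given as log2 RMA intensity, and each log2 difference comes with its standard error (SE). Calls were made with limma where p, adjusted over all 31042 probe sets by Benjamini and Hochberg's method, was under 0.05.

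The 2 DR+/+ arrays stood apart from the rest in cell type markers. All 7 measured beta cell markers were lower in DR+/+ than in F344 islets, with a median difference of -2.09, and 9 of 15 stellate and fibroblast markers were higher, with 3 lower and a median of 0.96. Insulin genes were bright on every array, with Ins1 at 13.87 and 13.86 on DR+/+ arrays and between 14.12 and 14.27 on the other 8. Acinar markers, the genes of digestive enzymes, were lower in BB-related islets in 23 of 23 cases. Their summed linear intensity was 29477 to 29955 in DR+/+, 50664 to 79594 in JBlyp/lyp, 61887 to 77693 in JB, 213980 to 247170 in F344lyp and 152190 to 173930 in F344. The difference between the 3′ and 5′ Gapdh control probe sets, a measure of RNA length, averaged 3.28 in DR+/+, 2.86 in JBlyp/lyp, 3.51 in JB, 2.19 in F344lyp and 2.39 in F344. Gimap5, the gene mutated at lyp, had 5.95 and 5.65 in JBlyp/lyp, against 7.05 and 5.95 in JB, and 5.96 and 6.02 in F344lyp, against 7.03 and 6.82 in F344. Neither Gimap5 difference was called (adjusted p = 0.785 and 0.158), and JB replicate 2 lay at the level of the lyp arrays. In whole islet preparations, fewer cells of a type and less RNA per cell cannot be told apart.

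**Figure D1:**
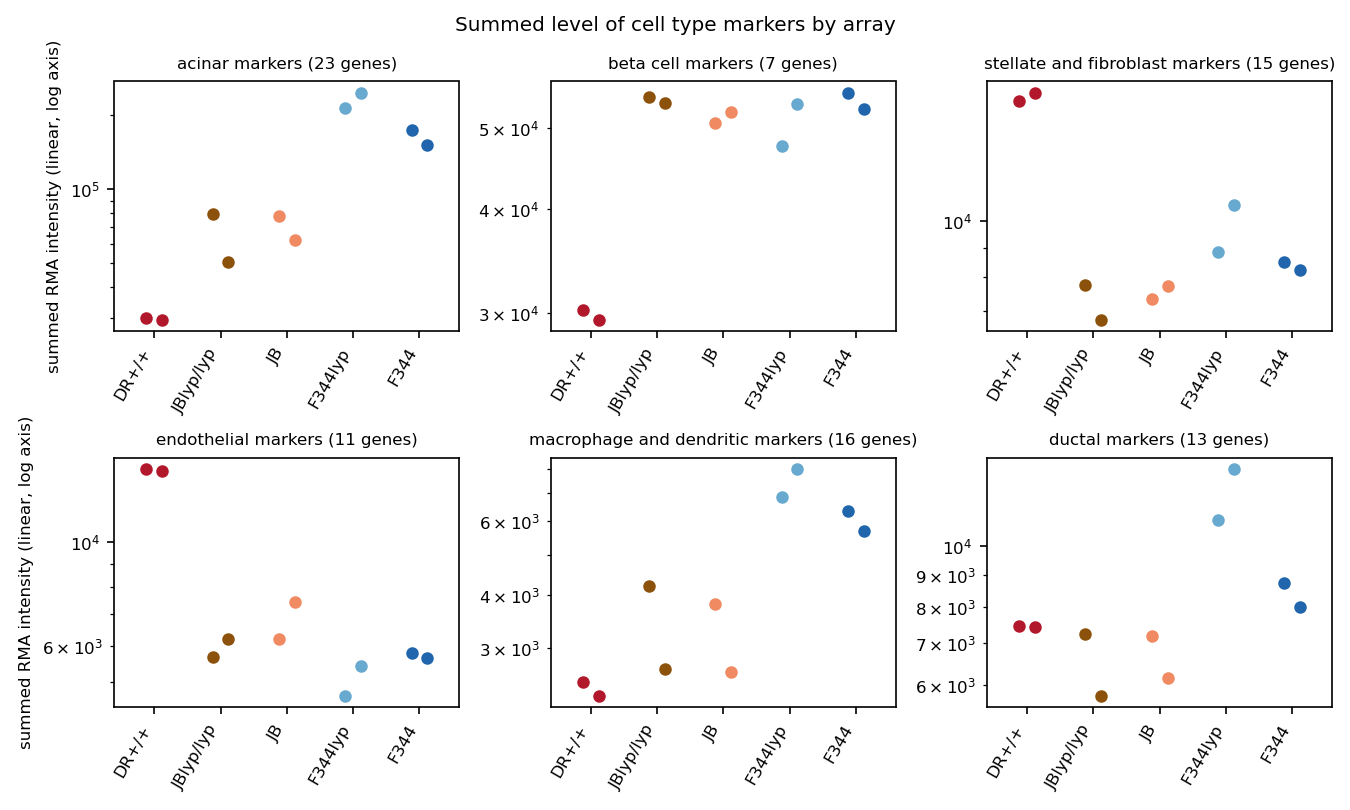
Summed linear RMA intensity of 6 lists of cell type markers (log axis) on each of the 10 arrays, 1 point per array, with the number of genes per list in each title. Acinar markers lie between 29477 and 79594 on the 6 BB-related arrays and between 152190 and 247170 on the 4 F344 and F344lyp arrays, while beta cell markers are lowest and stellate and endothelial markers highest on the 2 DR+/+ arrays.

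Transferase signal was lower in BB-related islets for most of the 10 members. These were chosen with earlier results of these data known, so their counts are descriptive and give no independent support. In BB against F344, which sets the mean of DR+/+, JBlyp/lyp and JB against that of F344lyp and F344, 9 of 10 members fell and 0 rose, with a median difference of -0.98 and a range of -1.78 to -0.24 (n = 6 and 4 arrays). Over the 14217 genes, each by its brightest probe set, 24.6% were called lower and 13.3% higher, with a median difference of -0.04, and over the 8 comparisons made the median of all genes lay between -0.06 and 0.04. In 6 of 10 members all 6 BB-related arrays lay below all 4 F344 and F344lyp arrays, which held for 10.6% of genes. These were Mgst3, Gstm2, Gstm7, Gstt1, Gstk1 and Gstz1. The error of this comparison leaves out the spread between groups of one side. With the sample group as a random block only Mgst3, Gstm2 and Gstm7 passed, and with 2 means in place of 5 group means Gstt1 and Gstk1 passed too. With the Gapdh 3′ to 5′ difference as a covariate 0 members and 8 of all probe sets passed, while the members' differences ran from -1.99 to 0.13 and their SE grew to 0.36 to 0.58. Mgst3, Gstm2 and Gstm7 then stood at -1.99, -1.55 and -1.81, and Gstz1 at 0.13. The part of RNA length and of the acinar share in these falls was not tested beyond that fit.

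**Figure D2:**
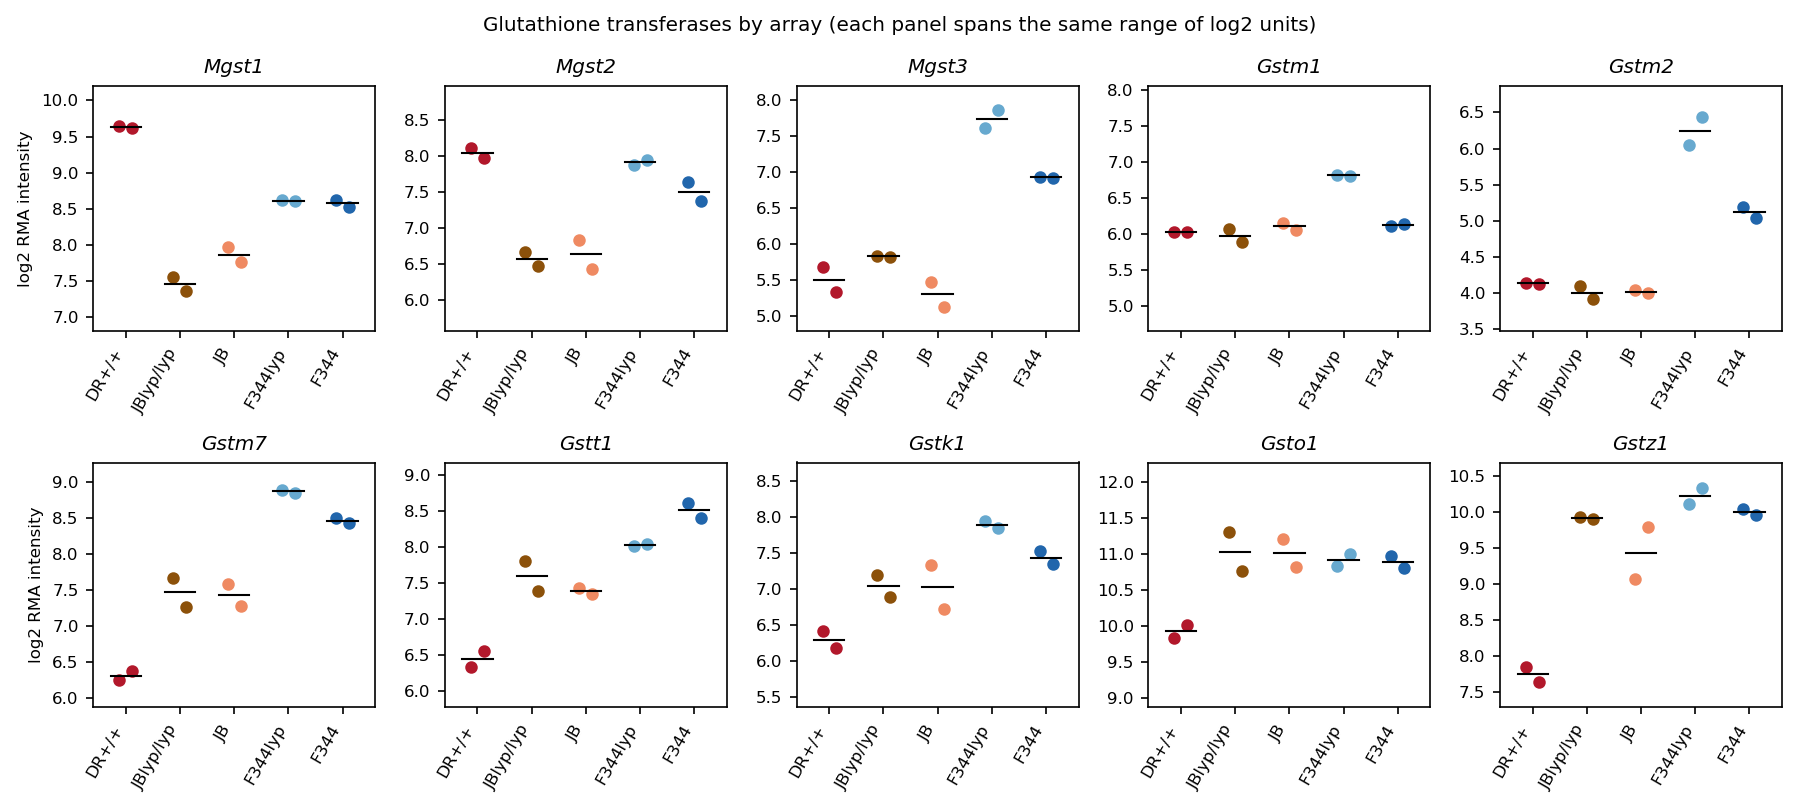
Log2 RMA intensity of the 10 glutathione transferase genes on each array (2 points per group, line at the group mean); every panel spans the same number of log2 units. Mgst3, Gstm2 and Gstm7 are lower in all 3 BB-related groups, Mgst1 and Mgst2 are highest in DR+/+, and Gsto1 and Gstz1 are lowest in DR+/+.

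The 3 membrane enzymes did not move as one. Mgst3, a membrane transferase that reduces lipid hydroperoxides, showed the largest fall of the family in BB against F344. It had 5.67 and 5.32 in DR+/+, 5.83 and 5.82 in JBlyp/lyp, 5.47 and 5.13 in JB, 7.60 and 7.85 in F344lyp, and 6.93 and 6.91 in F344. All BB-related arrays were at least 1 log2 unit below every F344 array. Mgst3 fell, with a log2 difference of -1.78 in BB against F344 (SE 0.11, 3.44-fold lower, adjusted p = 5.83e-06), -1.42 in DR+/+ against F344 (SE 0.17, adjusted p = 0.000196), -1.62 in JB against F344 (SE 0.17, adjusted p = 0.000539) and -1.90 in JBlyp/lyp against F344lyp (SE 0.17, adjusted p = 0.000136).

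Mgst1, the transferase and peroxidase of the endoplasmic reticulum and outer mitochondrial membrane, split the BB-related groups. Its values were 9.64 and 9.61 in DR+/+, 7.55 and 7.36 in JBlyp/lyp, 7.96 and 7.76 in JB, 8.62 and 8.60 in F344lyp, and 8.62 and 8.52 in F344. DR+/+ lay highest and both JB groups lowest, with no overlap with either F344 group. Mgst1 rose by 1.05 in DR+/+ against F344 (SE 0.14, 2.07-fold, adjusted p = 0.000289) and fell by 0.71 in JB against F344 (SE 0.14, adjusted p = 0.00994) and by 1.15 in JBlyp/lyp against F344lyp (SE 0.14, adjusted p = 0.000716). The fall of 0.28 over all BB-related groups (SE 0.09, adjusted p = 0.0363) thus averages differences of opposite sign, and without the DR+/+ arrays it was -0.93. That call was lost without any 1 array of DR+/+, F344lyp or F344, JBlyp/lyp replicate 2 or JB replicate 2 (adjusted p = 0.061 to 0.146). The fall in JB was lost without JB replicate 2, F344 replicate 1 or F344 replicate 2 (adjusted p = 0.059 to 0.11).

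Mgst2, which also conjugates glutathione to leukotriene A4, had the same split. It had 8.11 and 7.97 in DR+/+, 6.66 and 6.47 in JBlyp/lyp, 6.83 and 6.43 in JB, 7.87 and 7.94 in F344lyp, and 7.63 and 7.37 in F344. The JB and JBlyp/lyp arrays overlapped each other and lay below the 6 others. Mgst2 rose by 0.54 in DR+/+ against F344 (SE 0.17, adjusted p = 0.036) and fell by 0.87 in JB against F344 (SE 0.17, adjusted p = 0.0112) and by 1.34 in JBlyp/lyp against F344lyp (SE 0.17, adjusted p = 0.00108). The rise in DR+/+ did not pass without DR+/+ replicate 1, DR+/+ replicate 2, either F344 array or either F344lyp array (adjusted p = 0.0539 to 0.239). Over all BB-related groups Mgst2 stood at -0.62 (SE 0.11, adjusted p = 0.00209), and at -1.10 without the DR+/+ arrays. The Mgst2 fall in JB did not pass without JB replicate 2 or F344 replicate 1 (adjusted p = 0.0647 and 0.128). The other 3 genes of this membrane family, Ptges, Alox5ap and Ltc4s, serve eicosanoid synthesis, and 0 of 3 were called in BB against F344.

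The mu-class genes lie together on chromosome 2 in the RefSeq table of rat assembly GRCr8, in the order Gstm5, Gstm6l, Gstm7, Gstm3, Gstm2, Gstm1 and Gstm4, with 2 other protein-coding genes between Gstm7 and Gstm3 and 0 between Gstm2 and Gstm1. Mu-class proteins conjugate epoxides and other electrophiles as dimers. Their messages resemble each other, so a probe set may also read a relative. The 250 bases before the annotated start are shown for the 3 mu-class members, since these close neighbours differ in pattern, and for Mgst3, the member with the largest fall. The sequences are from RefSeq (GRCr8), all on the minus strand, at chr2:198260320-198260569, chr2:198316918-198317167, chr2:198343384-198343633 and chr13:82080296-82080545. Capitals mark matches on either strand to the antioxidant response element core TGACNNNGC, the GC box GGGCGG or the TATA box TATAAA.
Gstm7: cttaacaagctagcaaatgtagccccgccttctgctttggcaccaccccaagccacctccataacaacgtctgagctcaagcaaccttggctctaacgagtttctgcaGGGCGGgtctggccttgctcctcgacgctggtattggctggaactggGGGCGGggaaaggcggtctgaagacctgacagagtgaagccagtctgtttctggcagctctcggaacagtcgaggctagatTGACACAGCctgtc
Gstm2: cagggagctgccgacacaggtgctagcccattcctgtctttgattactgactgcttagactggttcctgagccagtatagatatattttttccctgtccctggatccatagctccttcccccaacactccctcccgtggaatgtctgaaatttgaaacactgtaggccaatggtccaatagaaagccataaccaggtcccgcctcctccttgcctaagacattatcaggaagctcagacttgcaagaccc
Gstm1: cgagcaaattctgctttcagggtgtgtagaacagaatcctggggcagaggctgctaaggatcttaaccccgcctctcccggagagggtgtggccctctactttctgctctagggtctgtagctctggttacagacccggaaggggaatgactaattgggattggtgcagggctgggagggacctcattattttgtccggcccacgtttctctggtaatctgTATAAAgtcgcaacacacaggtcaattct
Mgst3: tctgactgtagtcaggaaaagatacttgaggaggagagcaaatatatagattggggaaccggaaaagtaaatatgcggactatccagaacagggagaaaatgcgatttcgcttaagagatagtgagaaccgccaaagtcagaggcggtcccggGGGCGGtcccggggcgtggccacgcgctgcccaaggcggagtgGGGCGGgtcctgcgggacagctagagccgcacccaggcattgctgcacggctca

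The antioxidant response element core, the motif bound by Nrf2 with small Maf proteins, was present in the Gstm7 window, 14 bases before the start, and absent from those of Gstm2, Gstm1 and Mgst3. It occurred in 10.08% of 33469 windows of the same length. Gstm7 and Mgst3 had 2 GC boxes each (30.47% of windows had 1 or more), and Gstm1 had a TATA box 29 bases before the start (12.93% of windows). Windows were listed for 8 of the 10 members, and Gstz1 was the only other one with the TGACNNNGC core, 231 bases before its start. In the 4 windows shown no match overlapped another, and a match describes letters only.

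Gstm2 was low on all BB-related arrays and higher in both F344 groups. Its signal was 4.13 and 4.12 in DR+/+, 4.10 and 3.90 in JBlyp/lyp, 4.04 and 3.99 in JB, 6.05 and 6.43 in F344lyp, and 5.19 and 5.04 in F344. The 6 BB-related arrays lay between 3.90 and 4.13, and F344lyp lay above F344. Gstm2 fell, with a log2 difference of -1.63 in BB against F344 (SE 0.10, adjusted p = 5.81e-06), -0.98 in DR+/+ against F344 (SE 0.16, adjusted p = 0.00104), -1.10 in JB against F344 (SE 0.16, adjusted p = 0.00243) and -2.24 in JBlyp/lyp against F344lyp (SE 0.16, adjusted p = 2.77e-05). Gstm2 was the dimmest member, with its mean over the BB-related arrays at the 26th percentile of probe sets. The values used carry no detection call, so that level may be background, the small spread among BB-related arrays may be that of the floor, and these differences are best read as at least this large.

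Gstm7 fell in all 3 BB-related groups. It had 6.25 and 6.37 in DR+/+, 7.67 and 7.27 in JBlyp/lyp, 7.59 and 7.28 in JB, 8.90 and 8.85 in F344lyp, and 8.50 and 8.44 in F344. DR+/+ was lowest, the JB and JBlyp/lyp arrays overlapped, and the F344 groups were highest. Gstm7 fell, with a log2 difference of -1.60 in BB against F344 (SE 0.11, adjusted p = 9.62e-06), -2.16 in DR+/+ against F344 (SE 0.17, 4.46-fold lower, adjusted p = 1.53e-05), -1.03 in JB against F344 (SE 0.17, adjusted p = 0.00468) and -1.40 in JBlyp/lyp against F344lyp (SE 0.17, adjusted p = 0.00077). The fall in JB did not pass without F344 replicate 1 (adjusted p = 0.0574). Over the 10 arrays the genes most like Gstm7 were the acinar enzyme genes Cpa1, Prss2 and Cpb1 (Pearson r = 0.995, 0.992 and 0.992). Those arrays share strain, cell makeup and RNA quality, and the acinar share's part in the Gstm7 difference was not tested.

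Gstm1, a mu-class enzyme of rat liver, differed in F344lyp and little elsewhere. Its values were 6.03 and 6.03 in DR+/+, 6.07 and 5.90 in JBlyp/lyp, 6.16 and 6.06 in JB, 6.82 and 6.81 in F344lyp, and 6.12 and 6.14 in F344. The 8 arrays other than F344lyp lay between 5.90 and 6.16. Gstm1 fell, with a log2 difference of -0.83 in JBlyp/lyp against F344lyp (SE 0.13, adjusted p = 0.00294) and -0.43 in BB against F344 (SE 0.08, adjusted p = 0.00317). Gstm1 was not called in DR+/+ against F344 at -0.10 (95% interval -0.38 to 0.19, adjusted p = 0.621) nor in JB against F344 at -0.02 (-0.31 to 0.27, adjusted p = 0.952).

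Of the neighbouring genes, Gstm4 had 6.08 and 6.41 in DR+/+, 6.63 and 6.44 in JBlyp/lyp, 6.44 and 6.26 in JB, 7.36 and 7.36 in F344lyp, and 7.45 and 7.45 in F344. Like Gstm2 it separated the strains, but with no step between F344lyp and F344. Gstm4 fell, with a log2 difference of -1.03 in BB against F344 (SE 0.10, adjusted p = 6.91e-05). Gstm5, at -0.68, also fell (adjusted p = 0.00411), and Gstm3 and Gstm6l, all 3 named here for their place in the row, had differences of 0.19 and 0.30 in BB against F344 that were not called (adjusted p = 0.221 and 0.0593).

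**Figure D3:**
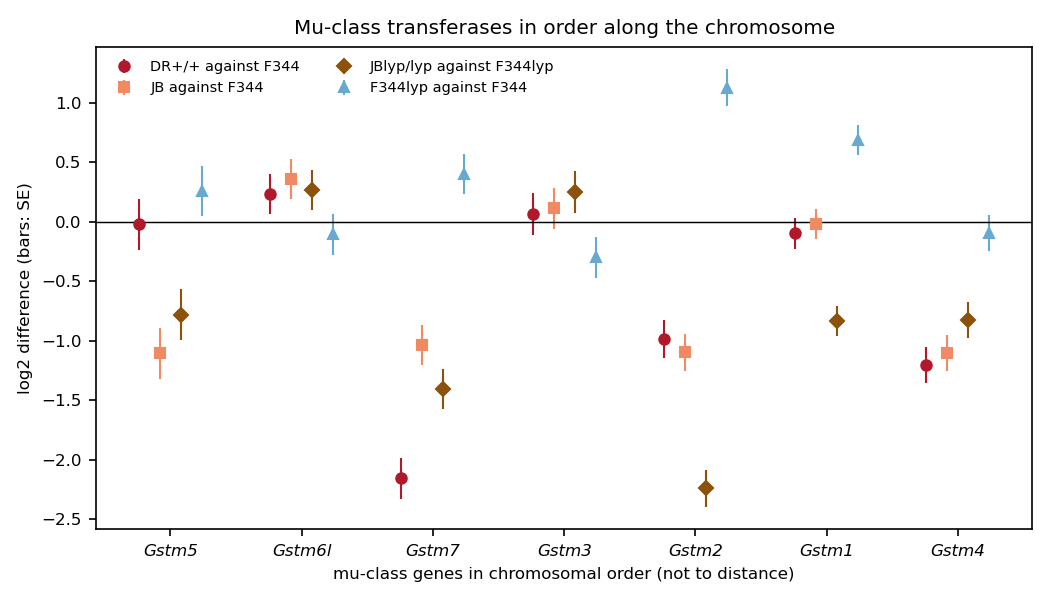
Log2 difference (bars are SE) of the 7 measured mu-class genes in 4 comparisons, placed in their order on chromosome 2 and not to distance. Gstm7, Gstm2 and Gstm4 are lower in all 3 comparisons of BB-related with F344 rats, Gstm3 and Gstm6l were called in none of the 4, and Gstm2 and Gstm1 are higher in F344lyp against F344.

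Gstt1, which acts on small halogenated compounds and some peroxides, had 6.34 and 6.56 in DR+/+, 7.81 and 7.39 in JBlyp/lyp, 7.43 and 7.34 in JB, 8.02 and 8.05 in F344lyp, and 8.61 and 8.41 in F344. It was the one member whose F344lyp arrays lay below its F344 arrays. Gstt1 fell, with a log2 difference of -1.13 in BB against F344 (SE 0.11, 2.18-fold lower, adjusted p = 7.1e-05), -2.06 in DR+/+ against F344 (SE 0.17, adjusted p = 1.95e-05) and -1.12 in JB against F344 (SE 0.17, adjusted p = 0.00302). In JBlyp/lyp against F344lyp it stood at -0.43 (95% interval -0.81 to -0.06, adjusted p = 0.123), and passed without JBlyp/lyp replicate 1 (-0.65, adjusted p = 0.0335). Its direct neighbour on chromosome 20, Gstt3, was picked after its values were seen. Gstt3 had 8.69 and 8.54 in DR+/+, 5.56 and 4.87 in JBlyp/lyp, 6.21 and 5.92 in JB, 7.56 and 7.68 in F344lyp, and 7.70 and 7.50 in F344. The pair went opposite ways in DR+/+: Gstt1 fell by 0.94 in DR+/+ against JB (SE 0.17, adjusted p = 0.00233), and Gstt3 rose by 2.55 (adjusted p = 3.01e-05).

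Gstk1, the transferase of mitochondria and peroxisomes, had 6.42 and 6.17 in DR+/+, 7.20 and 6.88 in JBlyp/lyp, 7.34 and 6.72 in JB, 7.94 and 7.85 in F344lyp, and 7.53 and 7.34 in F344. The replicates of JB differed by more than those of any other group, and the highest JB array lay just under the lowest F344 array. Gstk1 fell, with a log2 difference of -0.88 in BB against F344 (SE 0.14, adjusted p = 0.00098), -1.14 in DR+/+ against F344 (SE 0.21, adjusted p = 0.00234) and -0.85 in JBlyp/lyp against F344lyp (SE 0.21, adjusted p = 0.0256). The last did not pass without JBlyp/lyp replicate 2 or either F344lyp array (adjusted p = 0.113 to 0.117), and JB against F344 stood at -0.41 (95% interval -0.88 to 0.06, adjusted p = 0.27). Gstk1 lies on chromosome 4 with Gimap5, 62 protein-coding genes away in the RefSeq table.

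Gsto1, which reduces dehydroascorbate and mixed disulfides, was the one member not called in BB against F344, at -0.24 (95% interval -0.54 to 0.05, adjusted p = 0.186), and passed without JBlyp/lyp replicate 1 (-0.34, adjusted p = 0.0441). It was bright, with 9.84 and 10.02 in DR+/+, 11.31 and 10.76 in JBlyp/lyp, 11.21 and 10.82 in JB, 10.84 and 11.00 in F344lyp, and 10.97 and 10.81 in F344. The 4 groups other than DR+/+ overlapped one another. Gsto1 fell, with a log2 difference of -0.96 in DR+/+ against F344 (SE 0.20, adjusted p = 0.00506), and its differences in JB against F344 and JBlyp/lyp against F344lyp were 0.13 and 0.11 (adjusted p = 0.768 and 0.764).

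Gstz1, the maleylacetoacetate isomerase of tyrosine breakdown, showed the same group at the bottom and a wider range. It had 7.85 and 7.64 in DR+/+, 9.93 and 9.91 in JBlyp/lyp, 9.07 and 9.80 in JB, 10.11 and 10.34 in F344lyp, and 10.04 and 9.96 in F344. The 2 JB arrays were far apart, and JBlyp/lyp lay just under F344. Gstz1 fell, with a log2 difference of -2.25 in DR+/+ against F344 (SE 0.22, 4.76-fold lower, adjusted p = 4.72e-05) and -1.08 in BB against F344 (SE 0.14, adjusted p = 0.000358). Without the DR+/+ arrays that fall was -0.44 and did not pass (adjusted p = 0.0845), and with the Gapdh covariate it was 0.13 (adjusted p = 0.978). In JB against F344 Gstz1 stood at -0.56 (adjusted p = 0.134; -0.93 and 0.0172 without JB replicate 2), and in JBlyp/lyp against F344lyp at -0.31 (adjusted p = 0.398). Its most alike genes over the 10 arrays were Pim2, Ostc and Ptprn, the last a secretory granule gene of islets (Pearson r = 0.995, 0.995 and 0.994).

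Taking the BB-related groups one at a time, 7 members fell and 2 rose in DR+/+ against F344, with a median difference of -1.06 (23.8% of genes were called lower and 16.3% higher). In JB against F344, without lyp, 6 fell and 0 rose, with a median of -0.79 (8.22% and 4.79% of genes). In JBlyp/lyp against F344lyp, with lyp, 7 fell and 0 rose, with a median of -1.004 (11.3% and 4.7% of genes). The first 2 comparisons share the F344 arrays, the last 2 share no array, and 5 members, Mgst1, Mgst2, Mgst3, Gstm2 and Gstm7, fell in both, as did 5.32% of genes. Without F344 replicate 1 the count in JB against F344 was 3, as Mgst1, Mgst2 and Gstm7 no longer passed. Of the 14 other transferases measured, 2 fell and 1 rose in DR+/+ against F344, with a median of 0.02. In JB against F344 5 of them fell and 0 rose (median -0.56), and in JBlyp/lyp against F344lyp 7 fell and 0 rose (median -0.74). Acinar markers fell in 23 of 23, 20 of 23 and 22 of 23 cases in the same 3 comparisons, and macrophage and dendritic markers in 11, 8 and 14 of 16. Beta cell markers fell in 7 of 7 cases in DR+/+ against F344 but in 1 of 7 in each of the other 2, where 1 rose in JBlyp/lyp against F344lyp.

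**Figure D4:**
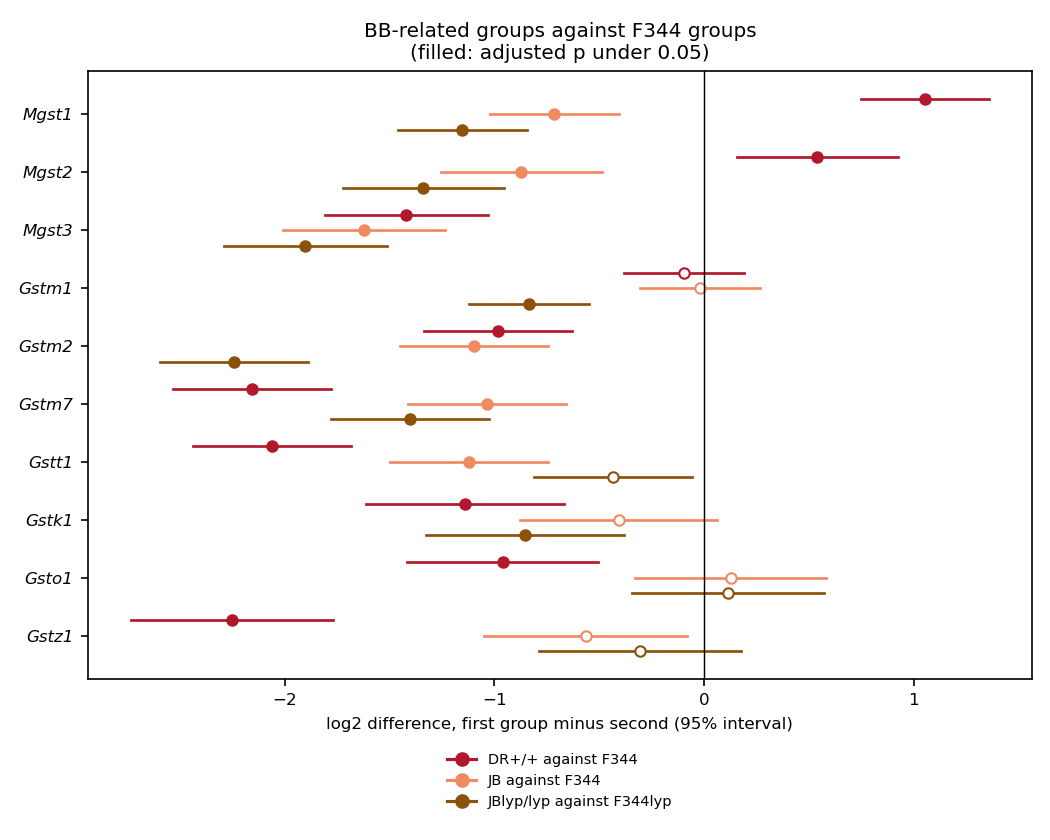
Log2 difference with its 95% interval for each member in DR+/+ against F344, JB against F344 and JBlyp/lyp against F344lyp; filled points have an adjusted p under 0.05. Mgst3, Gstm2 and Gstm7 are lower in all 3, Mgst1 and Mgst2 are higher in DR+/+ and lower in the other 2, and Gsto1 and Gstz1 were called in DR+/+ alone.

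DR+/+ was set against JB to compare the BB-related groups without lyp. Mgst1 rose by 1.77 (SE 0.14, 3.40-fold, adjusted p = 1.88e-05) and Mgst2 by 1.41 (SE 0.17, adjusted p = 0.000237), while Gstz1 fell by 1.69 (SE 0.22, adjusted p = 0.000324), Gstm7 by 1.12, Gsto1 by 1.09, Gstt1 by 0.94 and Gstk1 by 0.73. Thus 5 members fell and 2 rose, against 18.4% and 15.5% of genes. Mgst3, Gstm2 and Gstm1 were not called, at 0.20 (95% interval -0.19 to 0.59), 0.11 (-0.24 to 0.47) and -0.08 (-0.36 to 0.21). Of the 14 other transferases measured, 5 rose and 0 fell, among them Gsta4 by 0.75 (adjusted p = 0.0158). In the same comparison 10 of 15 stellate and fibroblast markers rose (Col1a1 by 1.26), endothelial markers in 10 of 11 and mesothelial markers in 4 of 6 with 1 lower, while acinar markers fell in 18 of 23 cases and beta cell markers in 6 of 7. Their part in the split of the transferases was not tested. With the Gapdh covariate 6 of the 7 calls passed, all but that of Gstk1, which was also lost without either DR+/+ array or JB replicate 1 (adjusted p = 0.0551 to 0.179).

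Groups with and without lyp were set against each other, JBlyp/lyp against JB and F344lyp against F344. The relation of JB to DR is not given, and JBlyp/lyp animals came from DRlyp/+ breeders. A line difference between JBlyp/lyp and JB can therefore not be told apart from an effect of lyp. In F344lyp against F344, likewise, an effect of lyp cannot be told apart from any other difference between these lines or their preparations. In JBlyp/lyp against JB, 0 of 10 members were called (limma; 3 had an unadjusted p under 0.05), and of all genes 0% were called lower and 0.00703% higher, which was 1 gene. The differences ran from -0.40 for Mgst1 to 0.53 for Mgst3 (95% intervals -0.71 to -0.10 and 0.14 to 0.91), with adjusted p of 0.662 and 0.647, so differences of up to about 1 log2 unit were not resolved. For Gstm2, whose level in both groups may be background, the difference was -0.01 (95% interval -0.37 to 0.34), for Gstm7 0.04 (-0.34 to 0.41) and for Gsto1 0.02 (-0.44 to 0.47).

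In F344lyp against F344, 2 members rose and 0 fell, against 1.58% and 0.317% of genes. Gstm2 rose by 1.13 (SE 0.16, 2.19-fold, adjusted p = 0.00875) and its neighbour Gstm1 by 0.69 (SE 0.13, 1.61-fold, adjusted p = 0.0333). Mgst3 stood at 0.81 (95% interval 0.42 to 1.19, adjusted p = 0.056, and 0.044 to 0.0485 without any 1 JBlyp/lyp or JB array), Gstk1 at 0.46 (adjusted p = 0.337), Gstm7 at 0.40 (adjusted p = 0.289) and Gstt1 at -0.48 (adjusted p = 0.208). The Gstm2 rise did not pass without either F344 array or F344lyp replicate 2 (adjusted p = 0.0844 to 0.146), nor the Gstm1 rise without either DR+/+, F344lyp or F344 array (adjusted p = 0.057 to 0.284). In the same comparison 5 of 23 acinar markers rose and 0 fell, and all 23 differences were above 0, from 0.10 to 2.51 with a median of 0.52. The acinar transcription factor gene Ptf1a rose by 2.51 (adjusted p = 0.000686) and Cuzd1 by 2.27 (adjusted p = 0.000215), both named after their values were seen, while the enzyme gene Cpa1 stood at 0.47 (adjusted p = 0.523). Of 8 intestinal epithelium markers 4 rose and 0 fell, with a median of 0.86. The part of these markers in the Gstm2 and Gstm1 rises was not tested.

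The difference between these lyp comparisons, JB minus F344, was called by limma for 0 of 10 members, of which 4 had an unadjusted p under 0.05. It was called for 0.429% of genes in the lower and 0.0492% in the higher direction. It was -1.14 for Gstm2 (SE 0.22, adjusted p = 0.105) and -0.82 for Gstm1 (SE 0.18, adjusted p = 0.171). That Gstm2 and Gstm1 were called in F344 and not in JB is therefore not shown to be a difference between backgrounds.

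**Figure D5:**
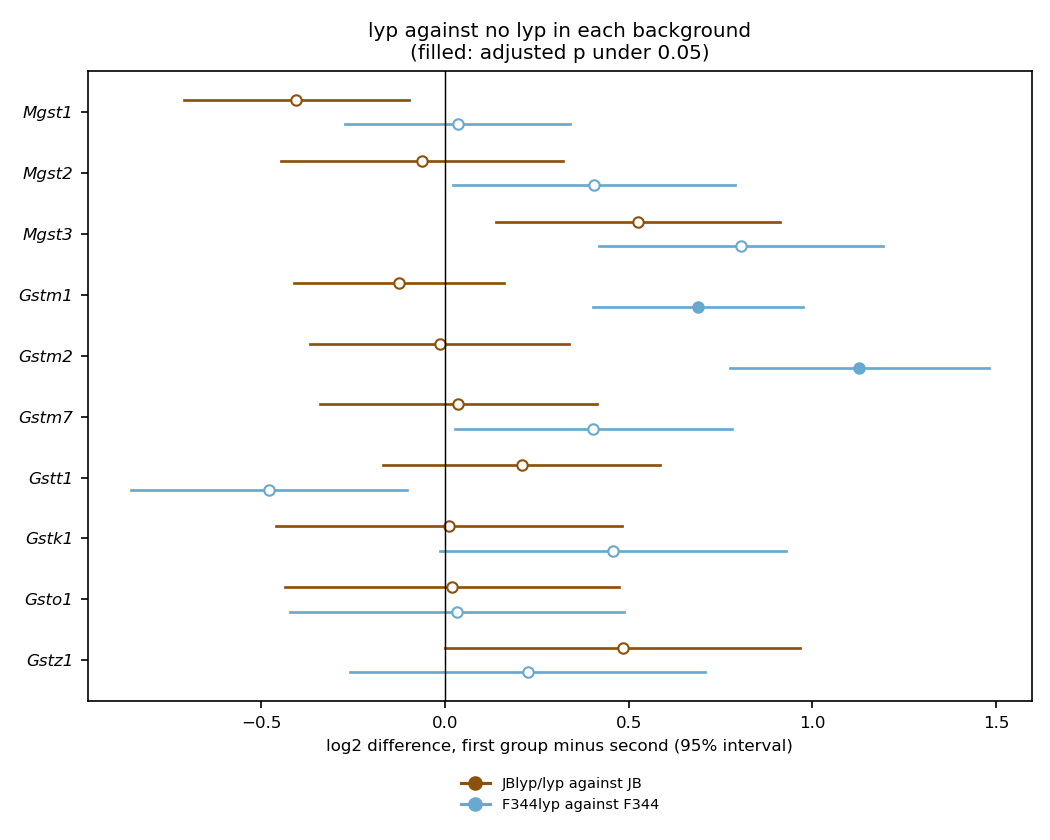
Log2 difference with its 95% interval for each member in JBlyp/lyp against JB and F344lyp against F344; filled points have an adjusted p under 0.05. Gstm2 and Gstm1 in F344lyp against F344 are the 2 filled points, and every JBlyp/lyp against JB point lies between -0.40 and 0.53.

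The rest of the glutathione system was described from lists of related genes. The shares of all genes to set beside the counts in BB against F344 are again 24.6% lower and 13.3% higher. Of 14 other transferases measured, 7 fell and 0 rose, with a median of -0.46. Gstp1, the pi-class enzyme, fell, with a log2 difference of -1.06 (SE 0.18, adjusted p = 0.00156), as did Hpgds, the sigma-class prostaglandin D synthase, with -0.74 (SE 0.10, adjusted p = 0.000403). Gsta4, which conjugates the lipid aldehyde 4-hydroxynonenal, fell, with a log2 difference of -0.53 (adjusted p = 0.00938), and Gsto2 was not called at 0.06 (adjusted p = 0.71). Taken by group, Gsta4 and Gstp1 were called only in JBlyp/lyp against F344lyp, at -0.98 and -1.67. In DR+/+ against F344 they stood at 0.20 and -0.31 (adjusted p = 0.471 and 0.439), and in JB against F344 at -0.54 and -0.80 (adjusted p = 0.105 and 0.0974).

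Among 19 genes that make, recycle and break down glutathione, 13 fell and 1 rose in BB against F344. The largest falls with no overlap between strains were in Cth and Cbs, which make cysteine from homocysteine, with log2 differences of -3.83 and -2.23, and in the membrane peptidases Ggt1 and Anpep, which break glutathione down outside the cell, with -2.04 and -1.76. Cth had 3.14 and 3.15 in DR+/+, 3.29 and 3.06 in JBlyp/lyp, 3.12 and 2.96 in JB, 8.15 and 8.57 in F344lyp, and 5.64 and 5.42 in F344. The mean of Cth over the BB-related arrays was at the 6.5th percentile of probe sets, a level that may be background. The size of its difference is therefore uncertain, and a strain variant under its probes was not tested. As for Gstm2, all BB-related arrays were low and F344lyp lay above F344, and Cth was the gene most like Gstm2 over the 10 arrays (Pearson r = 0.997), followed by Hpn and Nupr2 (0.991 and 0.987). Of the synthesis enzymes proper, Gclc, the catalytic subunit of the rate-limiting ligase, rose by 0.48 (adjusted p = 0.0124). That rise was 1.20 in DR+/+ against F344 (adjusted p = 0.000855), and Gclc was not called in JB against F344 at 0.45 (adjusted p = 0.168) or in JBlyp/lyp against F344lyp at 0.06 (adjusted p = 0.879). Its partner Gclm at -0.08, Gss at -0.25 and the reductase gene Gsr at 0.08 were not called (adjusted p = 0.674, 0.179 and 0.539). In F344lyp against F344, 6 genes of this list rose and 0 fell, with Cth at 2.83 (adjusted p = 6.52e-05), Cbs at 1.86 (adjusted p = 0.00252), Ggt1 at 1.75 (adjusted p = 0.00309) and Anpep at 1.44 (adjusted p = 0.00486).

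Enzymes that work beside the transferases were also counted in BB against F344, with 24.6% of all genes lower and 13.3% higher. Among 12 glutathione peroxidases and glutaredoxins 6 fell and 1 rose. Glrx5 at -0.84 and Glrx at -0.79 fell with no overlap between BB-related and F344 arrays. Gpx4 at -1.10, Gpx2 at -1.09 and Gpx3 at -0.90 fell further, with overlap. Glrx was not called in JB against F344 (-0.33), nor Glrx5 in JBlyp/lyp against F344lyp (-0.47). Among 9 genes of conjugate export and mercapturate formation 4 fell and 1 rose, with the export pump gene Abcc4 at -1.08 and the deacetylase gene Acy1 at -0.99. Among 17 other detoxification genes 10 fell and 2 rose. With no overlap, the P450 reductase gene Por stood at -1.28, the glyoxalase gene Hagh at -1.12 and the epoxide hydrolase gene Ephx1 at -0.84. Akr7a3 at -1.17 and Sult1a1 at -0.95 fell with overlap. Of 13 regulators of transferase genes, 0 fell and 1 rose. Nfe2l2, which encodes Nrf2, was at 0.08 (adjusted p = 0.565), and Keap1, its inhibitor, at -0.15 (adjusted p = 0.469). In DR+/+ against F344 Nfe2l2 rose by 1.01 (adjusted p = 0.000423), with 9.49 and 9.59 in DR+/+, against 8.52 and 8.54 in F344.

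The remaining members had these genes most like them over the 10 arrays, without a test. Mgst1 was most like Pon3, Cyp4f1 and Tspan8 (Pearson r = 0.993, 0.991 and 0.989), and Mgst2 most like Acy3, Rab13 and Kcnq1 (0.986, 0.986 and 0.985). Mgst3 was most like Aldh16a1, Reg3b and Grtp1 (0.989, 0.985 and 0.980), and Gstm1 most like Tex15, Lypd8 and F2 (0.981, 0.980 and 0.972). Gstt1 was most like Tmem258, Bbs9 and Nrbp1 (0.989, 0.984 and 0.984), Gstk1 most like Large2, Aldh18a1 and Cdk5rap3 (0.992, 0.991 and 0.990), and Gsto1 most like Fam234a, Rasa4 and Xpo6 (0.995, 0.989 and 0.989). The points share the strain groups and the step between DR+/+ and the other arrays.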

How the data were processed

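RNA of pancreatic islets was measured on 10 Affymetrix arrays, 2 for each of 5 groups taken from the sample titles. The authors deposited log2 intensities for each probe set on each array; the submitters' processing notes name GCOS and RMA, and no version is given in the labels. Array medians lay between 5.39 and 5.44.

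After removal of 57 control probe sets from 31099, limma fitted group means to 31042 probe sets (version 3.58.1, R 4.3.3), with 8 contrasts, moderated two-sided tests (eBayes, 5 residual and 4.72 prior degrees of freedom) and Benjamini-Hochberg adjustment over all probe sets. BB against F344 sets the mean of 3 group means against the mean of 2. Intervals are 95%. The fit was tested on simulated data. The number of arrays limits the precision.

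Symbols came from the array's annotation, with 1 symbol for 20826 probe sets, and all 10 members matched RefSeq's table of assembly GRCr8. A gene of a list is its probe set with the highest mean. A strain variant under a probe was not tested. The members and lists were chosen with earlier results of these data known. All members were named, with, per list, up to 4 called genes of largest difference in BB against F344 whose arrays did not overlap and a few fixed genes; the 3 genes most like each member went by Pearson r over the arrays and leave out uncharacterised loci. Alternatives were other normalizations, a filter on dim probe sets, another prior, gene means, a replicate block, a Gapdh covariate, fewer groups, the sample group as a random block and leaving out each array.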

Additional observations from a re-analysis of the deposited data

Results flagged for a closer look

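The difference from F344 was not the same in DR+/+ and in JB for 7 of 10 members, by the test of DR+/+ against JB itself (limma, n = 2 arrays each). In that test 18.4% of all genes were called lower and 15.5% higher. Mgst1 and Mgst2 differed by 1.77 and 1.41 on the log2 scale, higher in DR+/+. Gstm7 differed by -1.12, Gstt1 by -0.94, Gstk1 by -0.73, Gsto1 by -1.09 and Gstz1 by -1.69, lower in DR+/+. For Mgst1 and Mgst2 the sign against F344 turned between the 2 groups, and both DR+/+ arrays lay above and both JB arrays below all 4 F344 and F344lyp arrays. The turn is less firm for Mgst2, which rose by 0.54 in DR+/+ against F344 (limma, adjusted p = 0.036). Its lower DR+/+ array was at 7.97 and its higher F344lyp array at 7.94. With the Gapdh covariate the rises in DR+/+ against F344 were 0.92 for Mgst1 and 0.16 for Mgst2 (limma, adjusted p = 0.33 and 0.932). The markers of several cell types moved with the same step, and cell makeup and strain cannot be told apart in this design.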

How the results depend on the processing

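Counts of members called were 9 in BB against F344, 9 in DR+/+ against F344, 6 in JB against F344, 7 in JBlyp/lyp against F344lyp and 2 in F344lyp against F344. With the Gapdh covariate all 5 were 0 with larger SE, while many differences kept their size: Gstm7 was -2.36 in DR+/+ against F344, Mgst3 -1.87 in JB against F344, Gstm2 -2.18 in JBlyp/lyp against F344lyp and 1.11 in F344lyp against F344. Gstz1 in BB against F344 turned to 0.13. In DR+/+ against F344 Gstz1 went from -2.25 to -1.09 and Mgst2 from 0.54 to 0.16. Of all probe sets 8, 90, 1, 103 and 123 passed with this covariate in the order above, against 10300, 10206, 3595, 4383 and 468 without it. BB against F344 had 5 with 2 means, 3 with the sample group as a random block and 8 without the DR+/+ arrays. F344lyp against F344 had 0 without dim probe sets, where Gstm2 is left out and Gstm1 lost its call (adjusted p = 0.0515), 1 with a trended prior and 4 with the compared groups alone. Of those 4, 3 were higher and 1, Gstt1 at -0.48, was lower. That fit called 3230 of all probe sets, against 468 in the main fit. Leaving out each array in turn gave 8 to 10 in BB against F344, 8 to 9 in DR+/+ against F344, 3 to 6 in JB against F344 (3 without F344 replicate 1), 6 to 8 in JBlyp/lyp against F344lyp, 0 to 3 in F344lyp against F344, 6 to 7 in DR+/+ against JB and 0 in both lyp comparisons that had 0. A lone array of a group was then taken to vary like the others. Where the cause of a change is not given, it was not tested. The labels do not say whether the replicate numbers pair arrays. Of 10 pairs of groups, 5 deviated together by replicate number with r over 0.1 (-0.10 to 0.65), so some shared deviation by replicate number was present. With replicate number as a block the counts were 9, 9, 6, 7 and 3 in the order above. The counts kept within 1.5 times with quantile normalization, median centring and gene means. As each member has 1 probe set, gene means left the members' differences unchanged and so give no check on them. Over single members and settings, 1345 values stayed on their side of the threshold, 84 lost and 12 gained a call, and 1 reversed.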
